A study of Mus musculus with 2 samples.

Results

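A set of 6 genes of corticosteroid signalling was followed across the cell types of the aged mouse hippocampus: the receptor genes Nr3c1 and Nr3c2, and the hormone-responsive genes Fkbp5, Sgk1, Tsc22d3 and Zbtb16. They are 6 of the 10596 genes listed in at least 1 of 9 cell type tables, and they were chosen by name for their roles, with earlier results of these data known. The GWI group were male C57BL/6J mice given pyridostigmine bromide at 0.7 mg/kg and permethrin at 200 mg/kg by intraperitoneal injection, once a day for 10 days from 10 weeks of age. The control group were male mice of the same strain and age that received vehicle in the same way. In the sample labels the genotype reads C57/BL7 for GWI and C57/BL6 for control, while the series description gives one strain for both. Pyridostigmine inhibits cholinesterases and permethrin acts on voltage-gated sodium channels, and together they model the exposures linked to Gulf War Illness (GWI). Both groups were killed at 19 months, and nuclei from the pooled hippocampi of 3 mice per group gave 1 single-nucleus RNA library each. The mice behind a library cannot be separated, so no replicate spread, interval or test can be given, and every difference is one between these 2 libraries.

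Corticosterone, the main glucocorticoid of rodents, acts in the brain through 2 nuclear receptors. Nr3c2 encodes the mineralocorticoid receptor, which binds the hormone with high affinity and is abundant in hippocampal neurons. Nr3c1 encodes the glucocorticoid receptor, which binds it with lower affinity, is expressed in most cell types and is engaged mainly when hormone levels are high. Both receptors are held in the cytoplasm by heat shock protein 90 complexes, move to the nucleus once bound, and act on DNA at glucocorticoid response elements. Fkbp5 encodes a co-chaperone that is induced by the receptor and lowers its sensitivity to hormone, which closes a feedback loop. Sgk1 encodes a kinase that regulates ion channels and transporters, Tsc22d3 encodes the anti-inflammatory leucine zipper protein GILZ, and Zbtb16 encodes the zinc finger repressor PLZF. All 4 are widely used as readouts of receptor activity, though each also answers to other signals.

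The authors deposited, for each gene and cell type, the log2 fold change of mean expression in the GWI library over the control library, and the percentage of nuclei of each library in which the gene was detected. Listed genes reached a detection of 10% in 1 or both libraries and differed by at least 0.05 on the log2 scale. Of the 54 possible pairs of a gene and a cell type, 35 were listed and 19 were not, and a pair that is not listed was not analysed here. Depth was stated as at least 25000 reads per nucleus, and neither molecules nor numbers of nuclei per cell type are given in the sources used here. Detection was generally higher in the GWI library in several tables. It was higher for 80.0% of the listed genes in excitatory neurons, 67.4% in astrocytes and 67.4% in microglia, but for 42.1% in endothelial cells. Most cell type markers were listed under their own labels. Not listed there were Gad1 in inhibitory neurons, Slc1a2 in astrocytes, Flt1 in endothelial cells and Csf1r in microglia. The microglial marker P2ry12 was detected in 79.7% of GWI against 66.7% of control microglia. Neuronal marker RNA was also detected in other cell types. Gad2, an inhibitory neuron marker, was detected in 29.5% of GWI against 38.9% of control excitatory neurons. In inhibitory neurons its shares were 61.5% against 59.8%. Camk2a, a kinase gene of excitatory neurons, was detected in 62.2% of GWI against 63.4% of control astrocytes and in 26.3% against 28.2% of microglia.

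Target genes were mostly lower in the GWI library, and of the receptor genes Nr3c1 was mostly higher. Of the 19 listed values of the target genes, 3 were higher and 16 lower. Nr3c1 was higher in 7 of 8 tables, and Nr3c2 was higher in 4 and lower in 4. Outside the endothelial and pericyte tables, 15 of 17 target values were lower, against 49.5% of all values in those 7 tables. The target values are repeats of a few genes in the same 2 libraries, while the 49.5% also counts genes listed in few tables. Among the 456 genes listed in all 7 tables, 35.1% were lower in all 7, so a shared lower direction is common in widely listed genes. Over all 6 genes, 21 of the 35 values were lower and 14 higher. The share lower was 48.6% once the median change of genes of like length and detection was subtracted. That step changed the sign of 3 values, all of Nr3c2, and put Nr3c1 in inhibitory neurons at 0. It changed the sign of no target value. The share was 45.5% of 33 values once the median change of the same gene elsewhere was subtracted, a step that by construction puts a share near the middle. Changes were small: 22 of the 35 values were below 0.25 in size on the log2 scale.

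**Figure D1:**
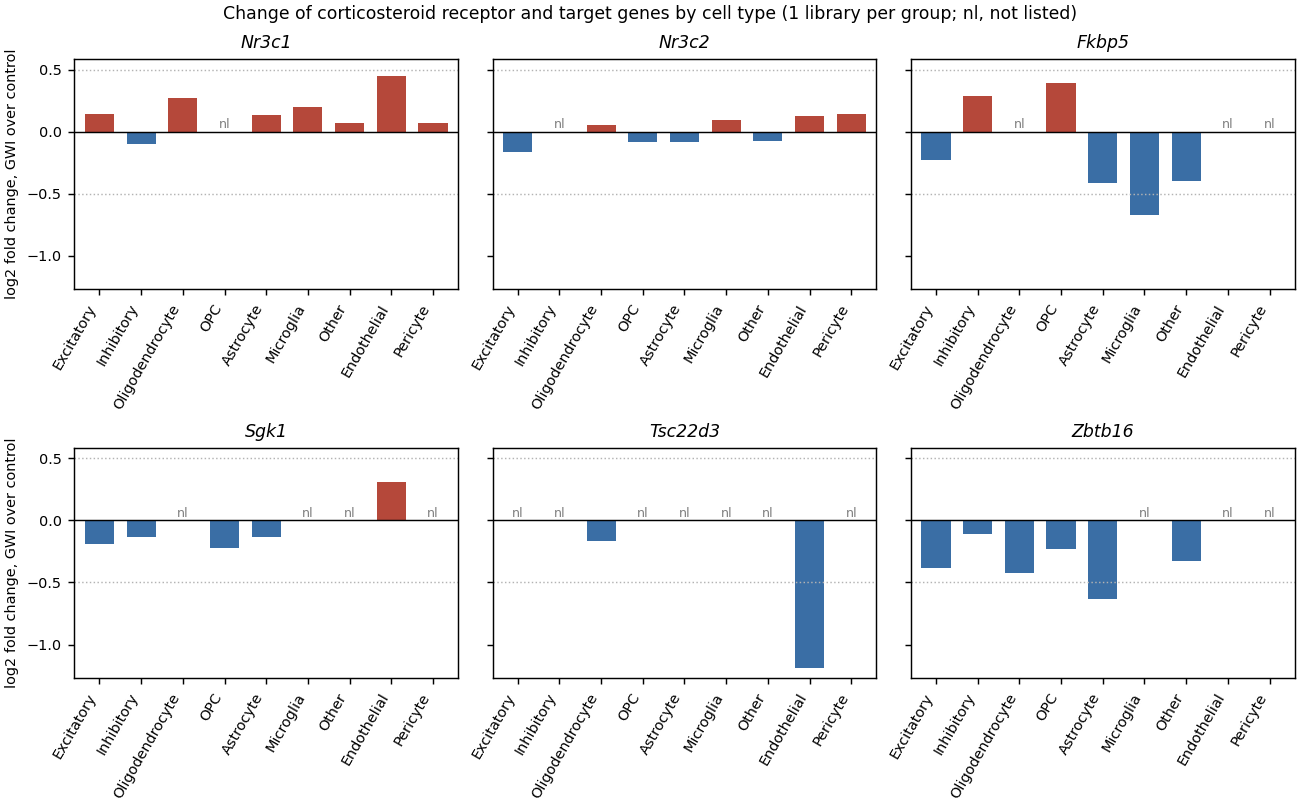
Deposited log2 fold change of the GWI over the control library (vertical axis) for each of the 6 genes in each cell type table; bars start at 0, dotted lines mark 0.5 in either direction, and nl marks a pair that is not listed. Zbtb16 lies below 0 in all 6 tables where it is listed, Nr3c1 lies above 0 in 7 of 8, and Tsc22d3 has the lowest value of all, -1.19 in endothelial cells.

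Of the 35 values, 3 reached an absolute log2 fold change of 0.5, and all 3 belonged to target genes and were lower in the GWI library. They were Fkbp5 in microglia (-0.67), Zbtb16 in astrocytes (-0.64) and Tsc22d3 in endothelial cells (-1.19). In the deposited tables as a whole that size was reached by 5.25% of the genes in microglia, 2.34% in astrocytes and 46.3% in endothelial cells. In oligodendrocyte precursor cells (OPCs) the share was 16.3%, in oligodendrocytes 3.26%, in inhibitory neurons 2.56% and in excitatory neurons 2.15%. It was 7.17% in the group named Other, whose nuclei carried the excitatory marker Slc17a7 in 89.5% of GWI and 89.3% of control nuclei, and 52.4% in pericytes. None of the 6 genes reached that size in these cell types. The endothelial value of Tsc22d3 was past 1 in size, as were 16.8% of endothelial genes, so it lies in a table where such values are common. The microglial and astrocytic values lie far out among their own genes, at rank 11 from the lowest of 2534 genes for Fkbp5 and at rank 16 of 5121 for Zbtb16.

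**Figure D2:**
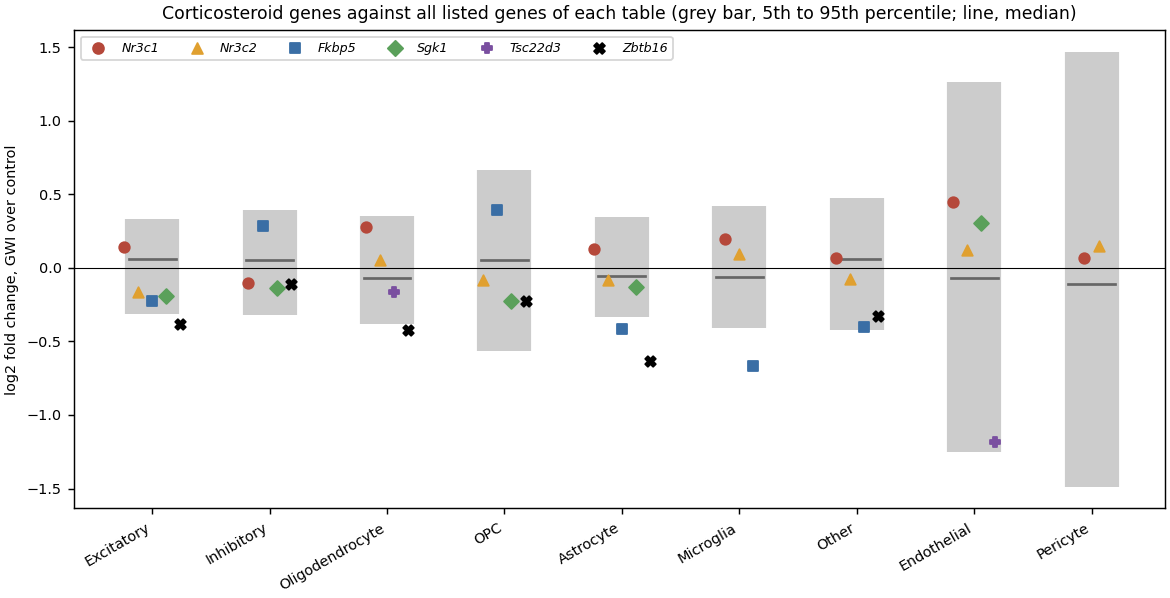
Log2 fold change of the GWI over the control library (vertical axis) for the 6 genes, set against all listed genes of each cell type table; grey bars span the 5th to 95th percentile of a table and the line is its median. Fkbp5 in microglia (-0.67) and Zbtb16 in astrocytes (-0.64) lie well below the bars, and Tsc22d3 in endothelial cells (-1.19) lies within a far wider one.

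Nr3c1, the glucocorticoid receptor gene, was slightly higher in the GWI library in most cell types. It was higher in 7 of the 8 tables that list it, while 26% of the 384 genes listed in the same 8 tables were higher in at least 7. In the authors' deposited tables its log2 fold change was 0.45 in endothelial cells, 0.27 in oligodendrocytes, 0.20 in microglia, 0.14 in excitatory neurons, 0.13 in astrocytes, 0.07 in the group named Other and 0.07 in pericytes. It was -0.10 in inhibitory neurons. These are modest positions within their tables. The oligodendrocyte value was higher than 90.3% of that table's genes, the microglial one higher than 78.7%, and the endothelial one higher than 74.8%. In linear terms Nr3c1 was 1.21-fold in oligodendrocytes and 1.10-fold in excitatory neurons.

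The share of nuclei with Nr3c1 detected followed the same direction in 7 of 8 tables. In microglia it was 42.4% in the GWI library against 35.0% in the control library, in oligodendrocytes 32.8% against 27.0%, and in excitatory neurons 69.0% against 63.2%. It was 65.2% against 59.9% in astrocytes, 84.0% against 77.9% in Other and 54.4% against 50.5% in endothelial cells. In inhibitory neurons the GWI share was the lower one, 42.6% against 44.5%. In pericytes it was 20.5% against 23.8%, opposite to the fold change of 0.07. The gains exceeded the typical gene's, since the median difference in detection over all listed genes was 2.0 percentage points in excitatory neurons, 1.2 in microglia and 1.2 in astrocytes, against 5.8, 7.4 and 5.3 points for Nr3c1. That comparison does not take account of Nr3c1 being detected more often than the median gene.

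Ordered by detection in the GWI library, Nr3c1 ran from Other through excitatory neurons, astrocytes, endothelial cells, inhibitory neurons, microglia and oligodendrocytes down to pericytes, and the control library gave the same order. Excitatory neurons were above astrocytes in each library, at 69.0% against 65.2% in the GWI library and 63.2% against 59.9% in the control library. With no replicates, whether such neighbours differ beyond the spread between samples cannot be given. Inhibitory neurons and microglia were 0.2 percentage points apart in the GWI library. Detection depends on molecules per nucleus, which differ between cell types, so this order is one of detection and not of expression.

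**Figure D3:**
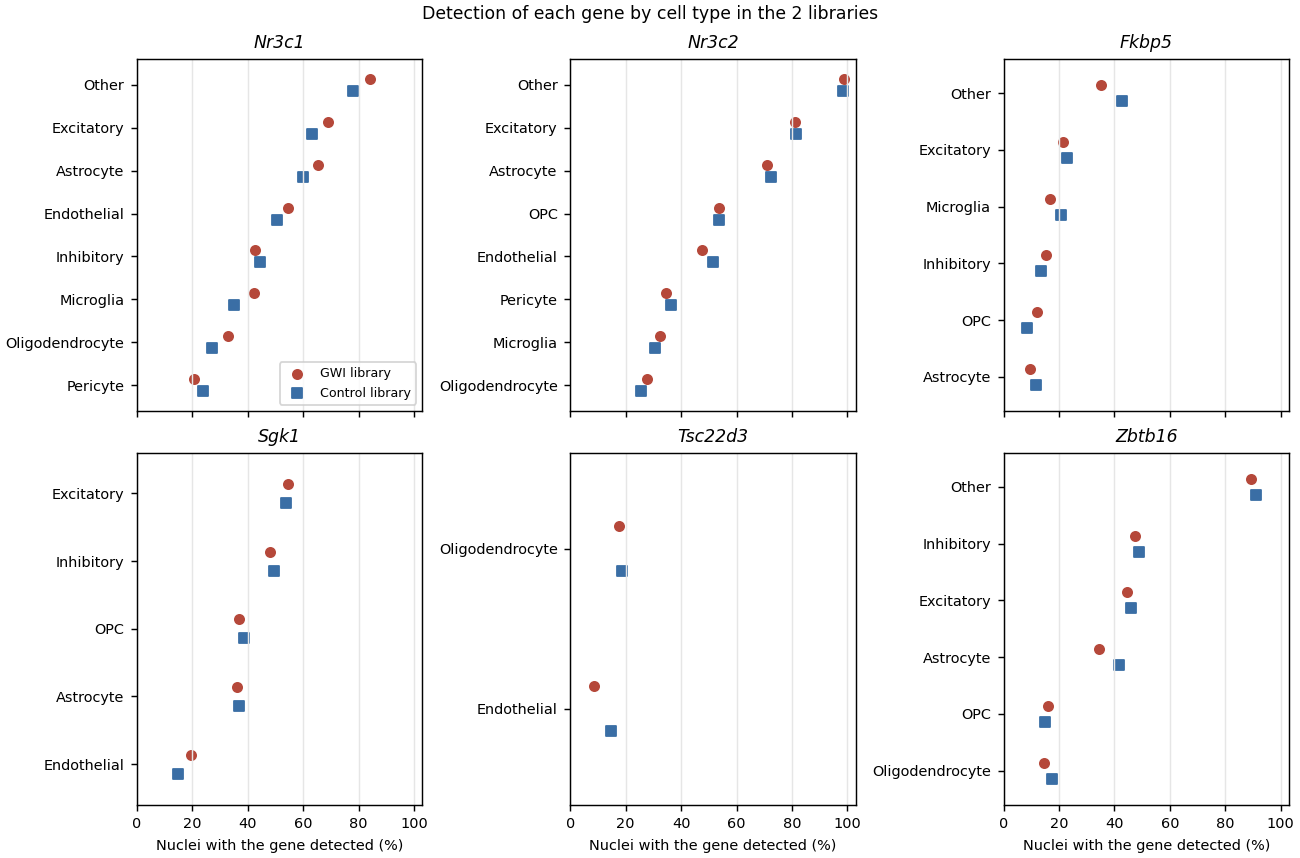
Percentage of nuclei with each gene detected (horizontal axis) in each cell type that lists it; circles are the GWI library, squares the control library, and cell types are sorted by the GWI value. Nr3c1 circles lie right of the squares in 6 of 8 cell types, and Fkbp5 circles lie left of them in 4 of 6.

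Nr3c2, the mineralocorticoid receptor gene, differed little and with no common direction. It was higher in 4 tables and lower in 4, and 62.5% of the 360 genes listed in the same 8 tables were lower in at least 4. Its deposited log2 fold changes spanned -0.16 in excitatory neurons to 0.15 in pericytes. The values between were -0.08 in OPCs, -0.08 in astrocytes, -0.07 in Other, 0.05 in oligodendrocytes, 0.09 in microglia and 0.12 in endothelial cells. In the cells where the receptor is best known, excitatory neurons, Nr3c2 was detected in 81.1% of GWI nuclei and 81.6% of control nuclei, and 19.6% of the table's genes had a lower fold change. Detection was nearly equal in OPCs too, at 53.6% in the GWI library against 53.8% in the control library.

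In 3 tables, detection and fold change of Nr3c2 pointed in opposite directions. The share was 98.8% against 98.3% in Other, 47.6% against 51.6% in endothelial cells and 34.6% against 36.5% in pericytes, each GWI against control. The order of cell types by detection was again the same in both libraries, with Other, excitatory neurons, astrocytes, OPCs, endothelial cells, pericytes, microglia and oligodendrocytes from high to low. OPCs and endothelial cells are close in the control library, at 53.8% and 51.6%, and pericytes, microglia and oligodendrocytes lay between 27.8% and 34.6% in the GWI library.

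Set side by side within a cell type, the 2 receptor genes differed by at most 0.32 on the log2 scale. The log2 fold change of Nr3c1 was above that of Nr3c2 in 6 of the 7 tables that list both, and in 4 of 7 once the median change of each gene in other cell types was subtracted. How often other pairs of genes differ in this way was not computed. The difference, Nr3c1 minus Nr3c2, was 0.32 in endothelial cells, 0.30 in excitatory neurons, 0.22 in oligodendrocytes, 0.22 in astrocytes, 0.14 in Other and 0.10 in microglia, and it was -0.08 in pericytes. In excitatory neurons, astrocytes and Other, Nr3c1 was higher and Nr3c2 lower in the GWI library. All 7 comparisons rest on the same 2 libraries and on changes of at most 0.45, so they are not independent of each other.

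Fkbp5, the feedback co-chaperone gene, was lower in microglia, astrocytes, Other and excitatory neurons and higher in OPCs and inhibitory neurons. Lower values in 4 of 6 tables are common, since 56.2% of the 712 genes listed in the same 6 tables were lower in at least 4. In the authors' deposited microglial table it had a log2 fold change of -0.67, that is 0.629-fold, with detection in 16.8% of GWI and 20.8% of control nuclei. In astrocytes the value was -0.42, with detection in 9.6% against 11.7%, and 2.34% of astrocyte genes were lower still. In Other it was -0.40, with 35.3% against 42.6%, and in excitatory neurons -0.23, with 21.5% against 22.9%. The opposite direction was seen in OPCs, at 0.39 with 12.1% against 8.4%, and in inhibitory neurons, at 0.28 with 15.4% against 13.6%. Fold change and detection had the same direction in each of the 6 tables.

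For the microglial value of Fkbp5, the detection share alone gave a smaller difference, a log2 ratio of -0.31. Of 4 excitatory neuron markers Camk2a alone was listed in the microglial table, at -0.23, and no inhibitory neuron marker was listed. Camk2a was also lower in excitatory neurons themselves, at -0.19. The share of nuclei with Camk2a in microglia was 0.28 of its share in excitatory neurons in the GWI library and 0.30 in the control library. The same ratio for Fkbp5 was 0.78 in the GWI library and 0.91 in the control library. Camk2a was detected in 93.5% of GWI and 94.0% of control excitatory neurons, near the upper limit of such a share. The part of neuronal RNA in the microglial difference was not tested. All 4 listed microglial markers were higher in GWI microglia, with a median log2 fold change of 0.45 and detection shares that sum to 268.8% in the GWI library against 237.2% in the control library, so Fkbp5 ran against them.

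Zbtb16, the PLZF gene, was lower in the GWI library in every table that lists it, 6 of 6. Of the 632 genes listed in the same 6 tables, 39.4% were also lower in all 6, so this pattern is a frequent one. Its deposited log2 fold changes were -0.64 in astrocytes, -0.43 in oligodendrocytes, -0.38 in excitatory neurons, -0.33 in Other, -0.23 in OPCs and -0.11 in inhibitory neurons. Only 0.293% of astrocyte genes were lower than Zbtb16, whereas in excitatory neurons the share was 2.53%, in oligodendrocytes 3.31% and in inhibitory neurons 34.1%. Astrocyte detection of Zbtb16 was 34.3% in the GWI library against 41.6% in the control library, a log2 ratio of -0.28. In oligodendrocytes the shares were 14.7% against 17.3%, in Other 89.3% against 91.0%, in excitatory neurons 44.4% against 46.0%, and in inhibitory neurons 47.3% against 48.7%. In OPCs detection went the other way, 16.1% against 15.1%.

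The astrocytic value of Zbtb16 stands beside lower inhibitory neuron markers in the same table. Of 3 such markers Gad1 and Gad2 were listed in astrocytes, at -0.63 and -0.69, and their detection shares sum to 18.1% in the GWI library against 23.6% in the control library. Of 4 excitatory markers 3 were listed and all 3 were lower, between -0.27 and -0.05, with shares that sum to 120.0% against 120.7%. The share of astrocyte nuclei with Zbtb16 was 0.77 of that in excitatory neurons in the GWI library and 0.90 in the control library, against 0.67 and 0.67 for Camk2a. The part of neuronal RNA in the astrocytic difference was not tested. The astrocyte markers Aqp4, Gja1 and Slc1a3 were all higher in GWI astrocytes, at 0.47, 0.35 and 0.22.

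Sgk1, the kinase gene, was a little lower in neurons, OPCs and astrocytes. It was lower in 4 of the 5 tables that list it, and 44% of the 1440 genes listed in those tables were lower in at least 4. The deposited log2 fold changes were -0.23 in OPCs, -0.19 in excitatory neurons, -0.14 in inhibitory neurons and -0.13 in astrocytes, and 0.30 in endothelial cells. Detection differed by at most 2.0 percentage points outside endothelial cells: 36.7% in GWI against 38.7% in control OPCs, 54.5% against 53.8% in excitatory neurons, 47.9% against 49.4% in inhibitory neurons and 36.1% against 36.7% in astrocytes. In endothelial cells the shares were 19.4% against 14.7%. The astrocyte share of Sgk1 was 0.66 of its share in excitatory neurons in the GWI library and 0.68 in the control library, against 0.67 and 0.67 for Camk2a, and the part of neuronal RNA in its astrocytic values was not tested.

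Tsc22d3, the GILZ gene, was listed in 2 tables. In endothelial cells its log2 fold change was -1.19, that is 0.440-fold, with detection of 8.7% in the GWI library against 14.7% in the control library. In oligodendrocytes it was -0.17, with 17.5% against 18.7%. Among endothelial genes 5.73% were lower than Tsc22d3. The markers of pericytes, cells that lie against the endothelium, were lower there as well: all 4 were listed and lower, with a median of -0.73 and detection shares that sum to 87.4% in the GWI library against 134.7% in the control library. Whether RNA of mural cells has a part in the endothelial value of Tsc22d3 was not tested.

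The DNA just upstream of annotated transcript starts is shown for 3 of the target genes, because the receptors act through a defined sequence. A glucocorticoid response element in its palindromic form reads AGAACA, any 3 bases, then TGTTCT, so both hexamers, which read the same on opposite strands, are part of it. RefSeq windows of the build GRCm38.p6, each with 250 bases before and 50 after a start, were found for 4 of the 6 genes, 11 windows in all, and both strands were searched. One of 6 Sgk1 windows held the complete element, which 3 of all 32851 windows held (0.00913%). It lies on chromosome 10 from 21993701 to 21993715, inside the Sgk1 gene but in no annotated exon, and 965 bases before the most downstream of the listed starts. A hexamer was found in 19.0% of all windows, in 3 of 6 Sgk1 windows including that one, and in 1 of 3 Tsc22d3 windows. The Fkbp5 and Nr3c2 windows held no hexamer. Both of these windows lie inside the annotated spans of their genes, and DNA outside the windows was not searched. The Fkbp5 window held 4 copies of the GC box GGGCGG, counted on both strands, which was found at least once in 35.7% of windows. Capitals mark response element hexamers in the first 2 sequences and GC boxes in the third, each 90 bases, 5′ to 3′ on the strand of the gene. They are Sgk1 at chr10:21993659-21993748 (plus strand), Tsc22d3 at chrX:140600660-140600749 (minus strand) and Fkbp5 at chr17:28486150-28486239 (minus strand).
Sgk1: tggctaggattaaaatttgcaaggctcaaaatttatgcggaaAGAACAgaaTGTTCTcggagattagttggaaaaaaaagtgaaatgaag
Tsc22d3: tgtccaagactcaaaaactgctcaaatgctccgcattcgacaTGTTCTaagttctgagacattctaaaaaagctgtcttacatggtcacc
Fkbp5: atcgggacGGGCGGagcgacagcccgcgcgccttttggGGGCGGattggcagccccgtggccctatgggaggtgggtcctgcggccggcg

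A match of letters says nothing about binding in these nuclei. Sgk1, the gene with the complete element near a start, ranged from -0.23 to 0.30 over the 5 tables that list it. Tsc22d3, with a hexamer in 1 of its windows, was at -1.19 in endothelial cells and -0.17 in oligodendrocytes. Fkbp5, with no hexamer in its window, ranged from -0.67 to 0.39. Nr3c2, also with no hexamer in its window, ranged from -0.16 to 0.15. More windows were searched for Sgk1 and Tsc22d3 than for Fkbp5 or Nr3c2, and a link between sequence and change was not tested.

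The genes that hold and release the receptors were mostly lower in the GWI library. Of 10 receptor chaperone genes 9 were listed somewhere. In the 7 tables other than endothelial cells and pericytes, 27 of their 39 values were lower, against 49.5% of all values there. The 39 values are repeats of 9 genes in the same 2 libraries, while the 49.5% also counts genes that few of these tables list. The chaperone median was -0.16. The median of all values there was 0.05, but values below 0.05 in size are not listed. That median therefore marks the edge of the gap around 0 and not a typical change. Hsp90aa1 and Hsp90ab1, which encode the 2 cytosolic forms of heat shock protein 90, were lower in all 9 tables, as were 16.7% of the 323 genes listed in all 9. In the authors' deposited tables Hsp90ab1 was at -0.63 in microglia, detected in 18.5% of GWI against 25% of control nuclei. Hsp90aa1 was at -0.36 in astrocytes, with 31.0% against 33.5%, and at -0.29 in excitatory neurons, with 45.3% against 46.7%. Hspa8, a constitutive heat shock protein 70 gene, was lower in the 6 of these 7 tables that list it, between -0.32 and -0.08, but was at 1.43 in pericytes. Ppid, which encodes cyclophilin 40, another immunophilin of the receptor complex, was higher in all 5 of the 7 tables that list it, between 0.12 and 0.29. For Hspa8 and Ppid, how many genes listed in the same tables kept 1 direction was not computed. Ptges3, the p23 co-chaperone gene, went both ways, from -0.22 in OPCs to 0.34 in microglia. In endothelial cells Fkbp4 was at 0.61 and Ptges3 at -0.53, and in pericytes Hsp90aa1, Hsp90ab1 and Ptges3 were at -0.62, -0.71 and 1.06.

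Counts by cell type show how evenly this held. Among chaperone genes, 4 of 7 listed members were lower in excitatory neurons, 4 of 5 in inhibitory neurons, 3 of 4 in oligodendrocytes, 4 of 5 in OPCs, 4 of 6 in astrocytes, 2 of 3 in microglia, 6 of 9 in Other, 4 of 6 in endothelial cells and 2 of 4 in pericytes. Over all genes of those tables the share lower was 55.5% in oligodendrocytes, 51.4% in astrocytes, 49.4% in inhibitory neurons, 49.3% in OPCs and 47.7% in excitatory neurons. It was 53.2% in microglia, 46.9% in Other, 51.6% in endothelial cells and 52.8% in pericytes.

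Coregulators, the proteins through which a bound receptor activates or represses genes, were also mostly lower. All 12 were listed somewhere, and 45 of their 58 values in the 7 tables were lower, against 49.5% of all values there. Their median was -0.13, or -0.05 once the median of genes of like length and detection was subtracted. The values are repeats of 12 genes in the same 2 libraries, while the 49.5% also counts genes listed in few tables. Crebbp, a histone acetyltransferase gene, was lower in all 7, as were 35.1% of the 456 genes listed in all 7. Its values lay between -0.24 and -0.10. Smarca4, which encodes the ATPase BRG1 of a chromatin remodelling complex, was lower in the 6 tables of the 7 that list it, down to -0.47 in microglia. Hdac2, a histone deacetylase gene, was higher in the 5 that list it and reached 0.57 in OPCs, with detection of 17.2% in the GWI library against 11.8% in the control library. For Smarca4 and Hdac2, the share of genes listed in the same tables that kept 1 direction was not computed. Among vessel cells, Hdac2 and Ncoa1 were at 1.002 and 0.61 in endothelial cells, and Nrip1 and Ncoa3 at -1.10 and -0.63 in pericytes.

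**Figure D4:**
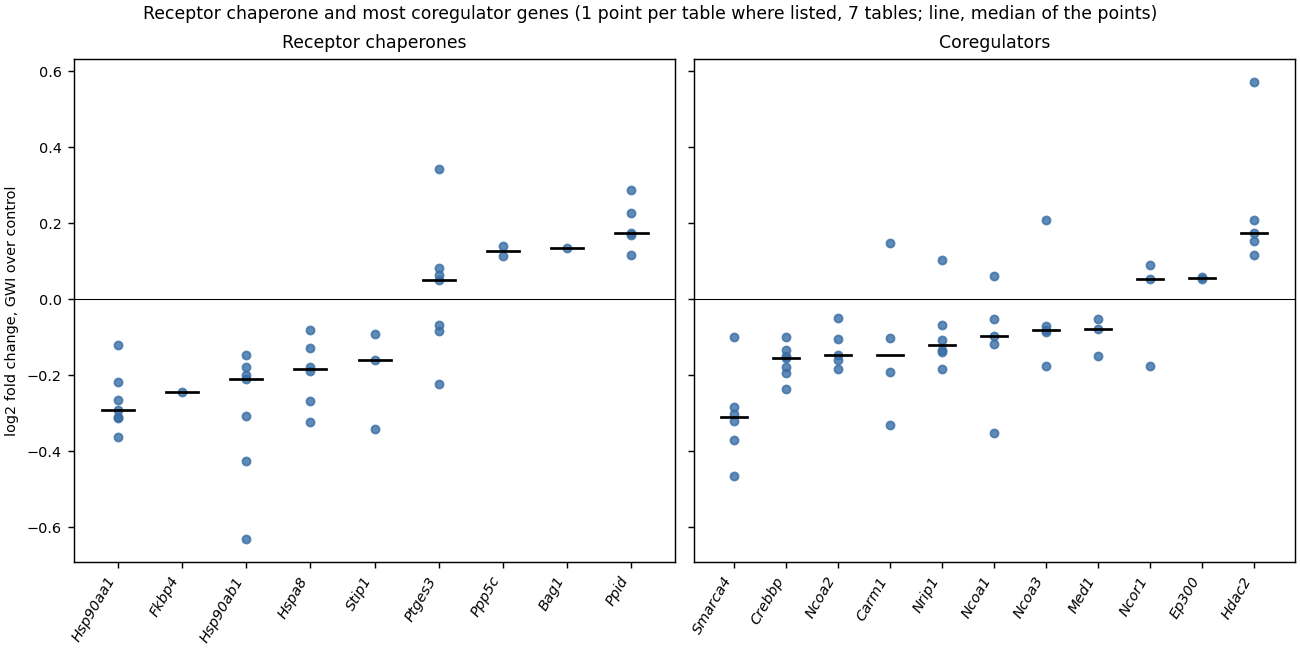
Log2 fold change of the GWI over the control library (vertical axis) for receptor chaperone genes and most coregulator genes; each point is 1 of the 7 tables other than endothelial cells and pericytes that list the gene, and the line is the median of its points. All points of Hsp90aa1, Hsp90ab1 and Crebbp lie below 0, and all points of Ppid and Hdac2 lie above it.

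Other known glucocorticoid response genes gave no common direction across cell types. Of 29 such genes 16 were listed somewhere. With endothelial cells and pericytes left out, 27 of 41 values were lower, against 49.5% of all values there. Their median was -0.16. Many of the 41 values are repeats of the same genes in the same 2 libraries, while the 49.5% also counts genes listed in few tables. All 3 listed members were lower in oligodendrocytes and in microglia, all 5 in OPCs and 5 of 6 in excitatory neurons. In astrocytes 5 of 8 were higher, and in endothelial cells 10 of 12. Over all genes the share lower was 55.5% in oligodendrocytes, 53.2% in microglia, 49.3% in OPCs and 47.7% in excitatory neurons. It was 51.4% in astrocytes and 51.6% in endothelial cells. Per1, a clock gene that the receptor induces directly, was lower in the 4 tables that list it, at -0.32 in excitatory neurons, -0.29 in inhibitory neurons, -0.24 in astrocytes and -0.08 in Other. Klf9, a receptor-induced transcription factor gene, was at -0.56 in OPCs, -0.21 in oligodendrocytes and -0.17 in excitatory neurons, but at 0.08 in inhibitory neurons. Bcl6, a repressor gene, was at -0.80 in OPCs and 0.42 in Other, and Gpd1 was at -0.60 in Other. Errfi1, a feedback inhibitor gene of growth factor receptors, was higher in the 4 tables that list it. It reached 0.71 in inhibitory neurons, with detection in 13.0% of GWI against 9.1% of control nuclei. For Per1 and Errfi1, how many genes listed in the same tables kept 1 direction was not computed.

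Vessel cells held the values of this list that were largest in size. In endothelial cells Htra1, a secreted protease gene, was at 2.65 and the stress-responsive gene Ddit4 at 1.48, each with detection of 11.7% in the GWI library against 5.3% in the control library. Mt1, a metallothionein gene, was at 0.83 and Mertk, a phagocytic receptor gene, also at 0.83, but Mertk was at -1.39 in pericytes, with detection of 14.1% in the GWI library against 30.2% in the control library. Endothelial Klf9, at -0.51, was lower, as Tsc22d3 was, in a table where 46.3% of genes passed 0.5 in size.

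Genes upstream of hormone release and of its local metabolism were mostly not listed. Of 5 genes of steroid access and metabolism, H6pd was listed in Other at -0.14 and the efflux pump gene Abcb1a in endothelial cells at -0.30. Of 8 genes of the corticotropin-releasing hormone system only Crhr1, its main receptor in brain, was listed. It was at -0.61 in Other, with detection in 20% of GWI and 26.8% of control nuclei, at -0.29 in inhibitory neurons and at -0.05 in excitatory neurons.

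Paralogs of the 6 genes did not move as one with them. Of 25 paralogs 16 were listed somewhere, and 37 of 60 values in the 7 tables were lower, against 49.5% of all values there. Their median was -0.13. The 60 values are repeats of 16 genes in the same 2 libraries, while the 49.5% also counts genes listed in few tables. Among relatives of Fkbp5, Fkbp1a was lower in the 5 of the 7 tables that list it, between -0.37 and -0.13, but was at 1.03 in endothelial cells. Fkbp3 was higher in 4 of 4, between 0.11 and 0.37, Fkbp15 in 3 of 3, between 0.05 and 0.18, and Fkbp9 in 2 of 2, at 0.23 and 0.49. In endothelial cells Fkbp3 was at 1.17, Fkbp9 at 0.07 and Fkbp15 at -0.36, and in pericytes Fkbp15 was at 1.18. Tsc22d1, a relative of Tsc22d3, was lower in all 7, between -0.48 and -0.13, and was at 0.47 in endothelial cells, where Tsc22d3 was at -1.19. Of the 456 genes listed in all 7 tables, 35.1% were lower in all 7. For the counts of the other paralogs no such share was computed. Tsc22d2, another relative, was higher in 4 of 5, up to 0.18 in microglia, and was at 1.22 in pericytes. Pgr, the progesterone receptor gene and a relative of both receptor genes, was higher in 3 of 4, up to 0.27 in Other. Sgk3, a relative of Sgk1, was lower in the 4 of 7 tables that list it, down to -0.39 in microglia. Of the genes of the same BTB zinc finger family as Zbtb16, Zbtb18 was at -1.24 in OPCs with detection in 5.1% of GWI against 10.1% of control nuclei, Zbtb7c at -0.70 in inhibitory neurons, and Zbtb7a at -0.51 in astrocytes but 0.66 in endothelial cells.

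The genes whose changes lay closest to each corticosteroid gene were found by the root mean square difference of log2 fold changes over the tables, endothelial cells and pericytes left out, that list the gene. Over 6 tables and 616 candidates, Lrrc1 (0.10), Selenow (0.10) and the heat shock protein gene Hsp90aa1 (0.14) lay closest to Zbtb16. Nr3c1 was followed most closely, over 6 tables and 528 candidates, by Ctdspl2 (0.06), Zfp280d (0.08) and Hapstr1 (0.09). The closest to Nr3c2, over 6 tables and 500 candidates, were Rsu1 (0.08), Tulp4 (0.08) and Rrbp1 (0.08). For Sgk1, with 4 tables and 1925 candidates, they were Pcbp4 (0.02), Trp53bp1 (0.03) and Abl2 (0.03), and many genes are close where changes are this small. Fkbp5 had no near neighbour: the closest of 695 candidates over 6 tables, Napb, Thsd7a and Ubr4, differed from it by 0.23, 0.24 and 0.24.

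All 6 genes are annotated as protein-coding and are long, and nuclear RNA contains unspliced transcripts. In GRCm38 with the GENCODE M21 annotation, Nr3c2 spans 346 kb on chromosome 8 from 76899442 to 77245012 (plus strand) and Zbtb16 182 kb on chromosome 9 from 48654297 to 48836222 (minus strand). Fkbp5 spans 118 kb on chromosome 17 from 28399094 to 28517527 (minus strand) and Sgk1 118 kb on chromosome 10 from 21882184 to 21999903 (plus strand). Nr3c1 spans 109 kb on chromosome 18 from 39410545 to 39519421 (minus strand) and Tsc22d3 61.1 kb on chromosome X from 140539528 to 140600659 (minus strand).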

How the data were processed

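Nuclei were isolated from pooled hippocampi, captured with 10x Genomics 3′ chemistry and sequenced, per the labels' protocols. Cell Ranger and GRCm38 (mm10) are named, without a version, per the submitters' processing notes. No source used here describes clustering, doublets, free RNA or the program that made the fold changes. Cell types follow the authors' annotation.

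Each of the 9 tables holds the authors' log2 fold changes of mean expression, whose scaling and pseudocount are not stated, and the fraction of nuclei with the gene detected in each library, per the file headers; fractions are printed as percentages. The comparison is labelled GWI_PBS_vs_Ctrl_PBS while the library names carry Veh: the first-named group was read as GWI, these were taken as the same libraries, and every direction rests on that. The deposited p-values treat nuclei as replicates and were not used.

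Counts, ranks, medians and differences were computed from the deposited values. By rule the text names the 6 genes, up to 4 genes per list and table past 0.5 in size, listed paralogs, the 3 nearest genes and markers beside a result. Ppid, Crebbp, Smarca4, Per1, H6pd and Abcb1a were added after their values were seen. Some list members count in the totals but are not reported here by name. The members and lists were chosen with earlier results of these data known. The subtraction of medians by gene length and detection, in 5 by 5 bins, was tested on simulated data. Those data held a length trend but no detection trend, noise below the spread of any deposited table and no gap around 0. The test therefore does not show how the step behaves on the deposited values. Gene positions and lengths came from GENCODE M21, in which 97.3% of symbols were found. Python 3.11.15, pandas 2.3.3, numpy 2.4.6 and matplotlib 3.10.9 were used.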

Additional observations from a re-analysis of the deposited data

Results flagged for a closer look

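Fkbp5 differed in opposite directions between cell types, by at least 0.25 on the log2 scale each way, a size chosen after the data were seen. In the deposited tables it was at -0.67 in microglia, -0.42 in astrocytes and -0.40 in Other, and at 0.39 in OPCs and 0.28 in inhibitory neurons. The difference between cell types was not tested, since each group is 1 library. Detection followed the fold change in all 5, but it was low in some tables of either direction. It was 12.1% of GWI against 8.4% of control OPCs, where Fkbp5 was higher. In astrocytes, where Fkbp5 was lower, it was 9.6% against 11.7%.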

How the results depend on the processing

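No paired analysis was possible because each group is 1 library, and no replicate could be left out. The 3 values past 0.5 in size became 1 with a limit of 1 and 2 without the endothelial and pericyte tables. They became 4 after centring each table on its median, when Nr3c1 in endothelial cells (0.52) joined them. Values below 0.05 in size are not listed, so each table median falls to 1 side of that gap, at -0.07 in endothelial cells. Centring carries that shift, and medians of genes of like length and detection also leave such values out. Subtracting the median of genes of like length and detection moved Zbtb16 in astrocytes to -0.49 and Fkbp5 in microglia to -0.54. Subtracting each gene's median change in other cell types moved them to -0.31 and -0.44, and it changed the sign of 10 of 33 values, none past 0.5. It also left list medians near 0, as it removes what cell types share: 0.011 for receptor chaperones, 0.0030 for coregulators, 0.015 for other response genes and 0.0073 for paralogs, each negative as deposited. Subtracting the median of genes of like length and detection moved the chaperone median to -0.30, the coregulator median to -0.05 and the paralog median to -0.06. Nr3c1 was above Nr3c2 in 6 of 7 tables as deposited, in 6 after centring and in 4 after subtraction of other cell types. The log2 ratio of detection shares changed the sign of 6 of 35 values, none past 0.5, but left 2 past 0.5: Tsc22d3 in endothelial cells (-0.76) and Fkbp5 in OPCs (0.53). Zbtb16 in astrocytes was then at -0.28 and Fkbp5 in microglia at -0.31. Centring and a detection minimum of 25%, which kept 24 values, changed no sign. Without numbers of nuclei no counting error can be given, and low shares such as those of Fkbp5 in astrocytes and OPCs are the least certain.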
